A study of Mus musculus with 5 samples.

Results

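The 29 genes described here encode proteins of the lysosome and of lipid handling: the cathepsins Ctsa, Ctsb, Ctsc, Ctsd, Ctsh, Ctsl, Ctss and Ctsz, the legumain gene Lgmn, other acid hydrolases and their cofactors (Psap, Hexa, Gusb, Neu1, Tpp1, Asah1, Lipa, Grn), membrane proteins (Lamp1, Lamp2, Cd63, Cd68, Laptm5, Scarb2, Gpnmb), cholesterol carriers (Npc1, Npc2) and lipid uptake genes (Lpl, Fabp5, Cd36). They were taken as a fixed list of symbols, chosen with earlier results of these data known. All 29 were present among the 32285 genes of each count matrix. Lysosomes digest proteins, glycans and lipids at acid pH, and their genes are active in all cells. Macrophages, which engulf and break down dead cells and debris, are known for a large lysosomal compartment, and islets hold resident macrophages that also take up material from beta cells. Lipoprotein lipase frees fatty acids that cells take up and carry on binding proteins, while in the lysosome acid lipase splits the lipids of engulfed lipoprotein and the Niemann-Pick proteins carry the cholesterol out.

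Islets were sequenced as single cells (10x Genomics 3 prime chemistry, 1 library per mouse) from 2 mice fed a diet with 20% HC, hydrolyzed casein, and 3 mice fed chow. HC mice 1 and 2 were 7 and 9 weeks old, and chow mice 1, 2 and 3 were 8, 10 and 10 weeks old. All 5 were NOD.Cg-Prkdcscid/J mice (NOD.SCID), a strain on the diabetes-prone NOD background in which the scid mutation of Prkdc prevents mature T and B cells, so islets were studied in both diets without the lymphocytes that attack them in NOD mice. The comparison asks how the diet changes islet cells in this setting. HC mouse 2 carries HC as its diet label and the series counts 2 HC mice, but the title of its library names chow. It is kept as HC here, and estimates between the diets that turn on it are also given without it.

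The libraries held 28722244 and 29485548 UMIs (unique molecular identifiers, each standing for 1 captured RNA molecule) in HC mice, against 29796212 to 39624978 in chow mice, and 22744 cells passed the filters. Cells were clustered without the 29 genes and named from other markers. Types with at least 20 cells in every mouse were 447 macrophages, 825 endothelial, 337 stromal, 2257 delta, 4909 alpha and 10939 beta cells. Macrophages numbered 93 and 122 in HC mice against 57, 71 and 104 in chow mice. Their leading genes were Cd74, Lyz2, Apoe, H2-Eb1, H2-Aa and H2-Ab1, followed by C1qb, C1qc, Tyrobp and C1qa. The complement genes C1qa, C1qb and C1qc averaged 5156, 3629 and 2206 CPM (UMI counts per 1000000 UMIs of the sum over a type's cells in a mouse) there against at most 235, 8.38 and 5.29 in another type. No UMI of the T and NK cell markers Cd3e, Cd3d, Nkg7, Gzma, Klrb1c and Ncr1 was found in the macrophage sums. Between 4 and 14 cell barcodes were shared by each pair of libraries. Insulin, glucagon and the other islet hormone genes made up 14.4% and 21.99% of macrophage UMIs in HC mice against 30.2%, 29.6% and 22.6% in chow mice. They made up 0.966% to 4.80% of endothelial and 64.9% to 72.2% of beta cell UMIs.

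Lysosomal genes are known to be driven by TFEB and related factors through an E-box. In myeloid cells PU.1 acts through a purine-rich ETS motif. Both motifs were looked for in RefSeq promoter windows of GRCm38.p6, running from 250 bases before to 50 bases after a gene's start, of which 23 of the 29 genes have an entry. GTCACGTG, an E-box with 2 flanking bases, was found on either strand in the windows of Ctsa, Ctsd, Lamp1 and Lgmn, against 2.55% of all 27025 genes with a window. Its 6-base core CACGTG, which every such match contains, was found in these and in Ctsl, against 8.09% of all genes. GAGGAAGT was found on either strand in the windows of Ctsc, Ctss and Gusb, against 3.69% of all genes. A match describes the letters of the window and does not show that a factor binds there.

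Windows of 2 genes with the E-box (Ctsd, Ctsa) and of 2 with the ETS motif (Ctss, Ctsc) were picked for display. Macrophages held these genes at 11.8, 8.21, 771 and 30.03 times the mean of the other types. Lgmn, also with the E-box, stood at 24.9 times and Gusb, also with the ETS motif, at 6.12 times, so the picks do not tie a motif to a level. The windows are shown from 250 bases before the start to 15 bases after it, 5′ to 3′ on the gene's strand, with GTCACGTG or GAGGAAGT or their reverse complements in capitals. They lie at chr7:142387813-142388077 (minus strand) for Ctsd, the gene of the main aspartic protease of the lysosome, chr2:164833523-164833787 (plus strand) for Ctsa, chr3:95526536-95526800 (plus strand) for Ctss and chr7:88277835-88278099 (plus strand) for Ctsc.
Ctsd: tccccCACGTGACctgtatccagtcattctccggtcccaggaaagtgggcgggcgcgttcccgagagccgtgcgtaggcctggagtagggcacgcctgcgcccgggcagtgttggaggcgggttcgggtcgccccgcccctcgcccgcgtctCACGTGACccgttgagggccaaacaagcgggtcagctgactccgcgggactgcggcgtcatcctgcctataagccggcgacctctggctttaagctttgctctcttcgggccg
Ctsa: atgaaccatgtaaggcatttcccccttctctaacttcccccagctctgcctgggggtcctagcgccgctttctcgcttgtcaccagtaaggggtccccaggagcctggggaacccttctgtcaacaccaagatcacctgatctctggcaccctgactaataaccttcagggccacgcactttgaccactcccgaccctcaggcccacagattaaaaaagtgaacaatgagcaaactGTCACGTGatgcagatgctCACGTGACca
Ctss: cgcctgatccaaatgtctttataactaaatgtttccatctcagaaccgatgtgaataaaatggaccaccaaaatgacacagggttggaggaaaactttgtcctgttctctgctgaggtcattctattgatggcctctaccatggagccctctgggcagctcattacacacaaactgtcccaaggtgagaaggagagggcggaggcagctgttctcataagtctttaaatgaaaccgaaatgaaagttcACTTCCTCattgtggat
Ctsc: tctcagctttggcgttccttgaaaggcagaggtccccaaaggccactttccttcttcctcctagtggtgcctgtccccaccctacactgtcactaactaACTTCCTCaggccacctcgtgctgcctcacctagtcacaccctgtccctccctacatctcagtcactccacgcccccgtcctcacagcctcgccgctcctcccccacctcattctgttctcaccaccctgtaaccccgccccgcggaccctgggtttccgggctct
Ctsd holds its 2 matches 245 and 98 bases before the start, both as the reverse complement. Ctss holds its match on the reverse strand, beginning 2 bases before the start, and Ctsc on the reverse strand 151 bases before it.

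Macrophages carried the 29 genes at the highest summed level of the 6 types. In macrophages the sum was 21397 and 25079 CPM in HC mice and 13836, 13513 and 23463 in chow mice. In stromal cells it was 5180 and 6921 in HC mice and 6700, 3512 and 5108 in chow mice, and in endothelial cells 3980 and 4014 against 4106, 3876 and 3832. Delta cells had 2758 to 3213, alpha cells 2188 to 2681 and beta cells 1495 to 2116 over the 5 mice. In every mouse macrophages lay above all other types. With the hormone genes left out of the totals, the sum was 19202 to 32147 in macrophages, 5970 to 9777 in stromal, 5381 to 6034 in beta and 3861 to 4732 in delta and alpha cells, so macrophages remained the highest and beta cells stood above delta and alpha cells. The 3 prime counts are 1 per molecule, so levels of genes can be set side by side without a correction for length.

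**Figure D1:**
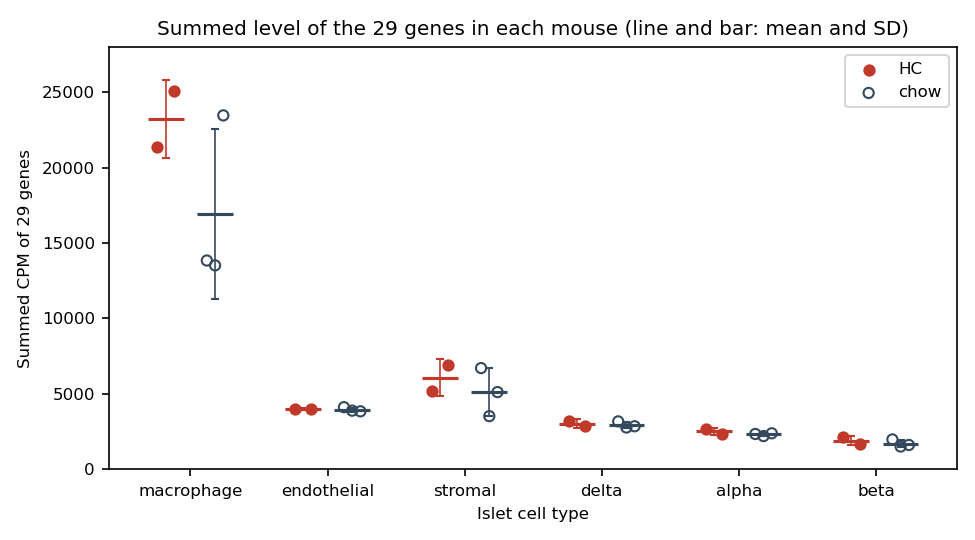
Summed CPM of the 29 genes (y axis) in each cell type (x axis), with 1 point per mouse, HC filled and chow open, and lines and bars for mean and SD. Macrophages lie between 13513 and 25079, above every other type, and chow mouse 3 lies with the HC mice.

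Against the equally weighted mean of the other 5 types, 26 of the 28 genes tested were higher in macrophages (edgeR quasi-likelihood test with the mouse as a block, Benjamini-Hochberg adjusted p under 0.05 over 9653 genes) and 0 were lower. Of all genes tested, 20.2% were called higher and 11.6% lower. The median log2 difference was 3.18 over the 28 genes and -0.05 over all genes. Gpnmb did not pass the filter on low counts, and Ctsl and Lpl were not called. The cell types were defined by other genes of the same cells, so these calls describe types set apart by expression. Against single types in the same fit, 27 genes were higher and 0 lower in macrophages than in delta cells (24.2% of all genes higher and 22% lower), 26 higher and 1 lower than in alpha cells (23.6% and 22%), 24 higher and 0 lower than in beta cells (25% and 23.9%), 26 higher and 0 lower than in endothelial cells (22.6% and 22.2%) and 24 higher and 1 lower than in stromal cells (13.9% and 13.8%). The lower gene was Lpl in both cases.

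The highest folds were those of 3 genes known for their expression in leukocytes. Ctss, a cathepsin that trims the MHC class II invariant chain, had 3425 and 2128 CPM in macrophages of HC mice and 2423, 2099 and 2612 in those of chow mice, against means of 10.8 in endothelial, 3.86 in stromal and 1.03 or less in endocrine cells. Laptm5, a lysosomal membrane protein of blood cells, had 761 and 542 in HC mice and 467, 573 and 581 in chow mice, with 2.94 in endothelial cells and no UMI in delta cells of any mouse. Cd68, the macrophage lysosomal mucin, averaged 448 ± 170.2 in macrophages (SD, n = 5) and at most 1.92 in another type. Their folds over the mean of the other types were 771, 776 and 560, with adjusted p of 7.37e-30, 2.72e-74 and 8.77e-73. C1qb, which only macrophages should make, stood at 0.231% of its macrophage level in endothelial cells and 0.00600% in beta cells, and Ctss stood at 0.425% and 0.00372%. Shares of this size are read as background here and not as expression. The size depends on the marker: C1qa, also a macrophage marker, stood at 0.351% in endothelial, 0.217% in beta and 4.55% in delta cells.

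Ctsc, which activates granule serine proteases, had 821 and 490 CPM in macrophages of HC mice and 488, 474 and 735 in those of chow mice, 30.03 times the mean of the other types. Stromal cells held it at 26.6 to 172 over the 5 mice, 14.7% of the macrophage level. In the same cells C1qb stood at 0.218%, C1qa at 0.363% and Pf4, another macrophage marker, at 4.01% (8 UMIs). Ctsh, an aminopeptidase and cathepsin, stood at 16.4% of its macrophage level in stromal and 6.96% in delta cells. In delta cells C1qb stood at 0.0174% but C1qa at 4.55%, so the Ctsh share there was not far above that of C1qa. Lgmn, the asparaginyl endopeptidase that cuts after asparagine, averaged 781 ± 296 in macrophages (SD, n = 5), 24.9 times the mean of the other types. Gpnmb, a glycoprotein of lipid-laden macrophages, was found in macrophages and stromal cells and had no UMI in endothelial, delta, alpha or beta cells. The 4 other cathepsins called, Ctsb, Ctsd, Ctsz and Ctsa, averaged 406 to 1779 CPM in macrophages, 8.21 to 14.5 times the mean of the other types.

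The genes of sphingolipid and cholesterol breakdown were present in all 6 types. Psap, the precursor of the saposins, had 2555 and 2970 CPM in macrophages of HC mice and 1707, 1682 and 2020 in those of chow mice, 7.41 times the mean of the other types. Hexa, the alpha chain of beta-hexosaminidase, was 4.36 times and Npc2, the soluble cholesterol carrier, 5.08 times that mean. Grn, progranulin, was 5.74 times and Gusb, beta-glucuronidase, 6.12 times. Lipa, lysosomal acid lipase, averaged 128 CPM in macrophages and 103 in endothelial cells but 2.60 to 3.96 in the 3 endocrine types. Endothelial cells of 2 of the 5 mice lay above macrophages of the same mouse for Lipa, although the fit, which scales libraries by TMM, put macrophages higher (log2 1.12, SE 0.204, adjusted p = 1.82e-06 by edgeR).

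**Figure D2:**
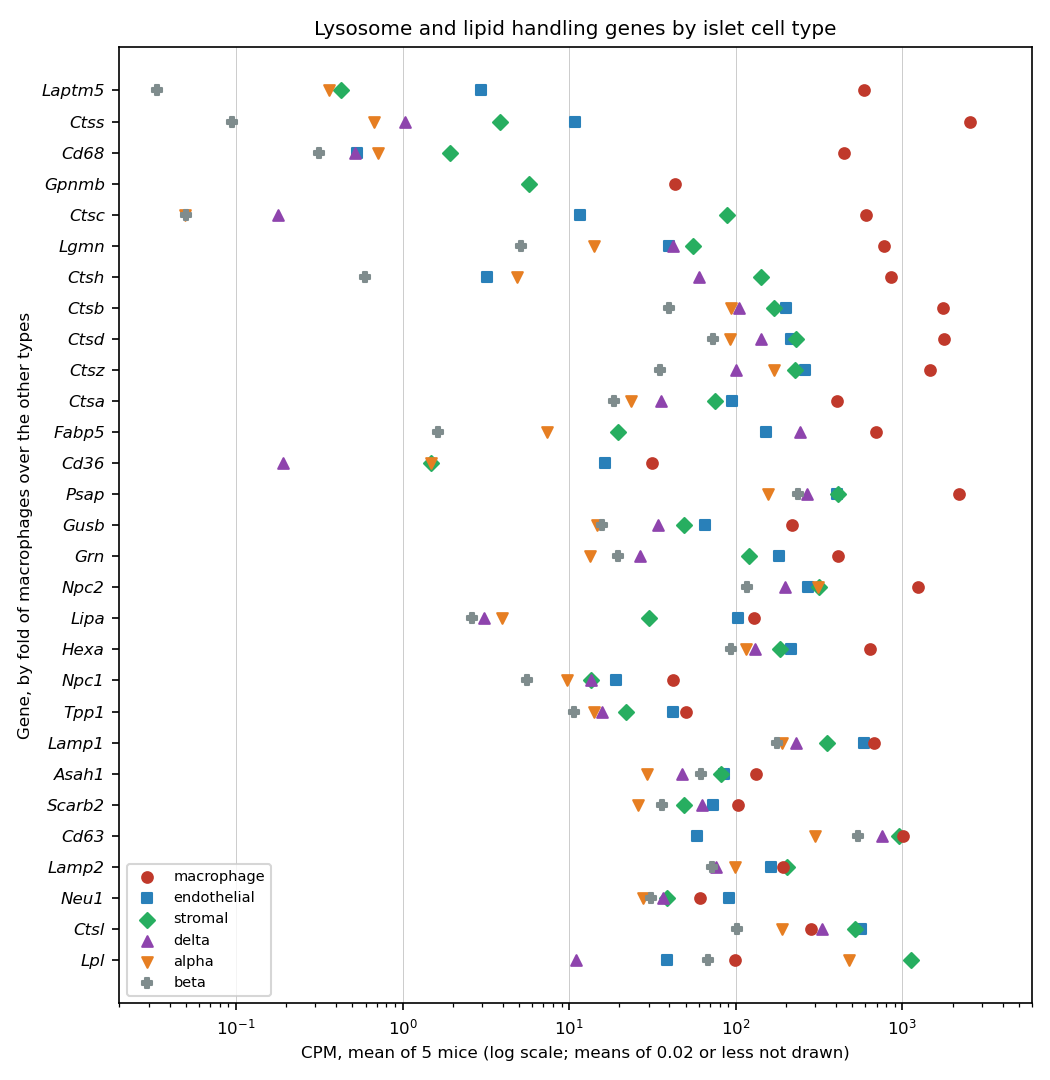
Mean CPM over 5 mice (x axis, log scale) of each of the 29 genes (y axis, ordered by the fold of macrophages over the mean of the other types), with 1 symbol per cell type. Macrophages stand alone on the right for Laptm5, Ctss and Cd68, while stromal cells hold the highest level of Lpl (1126) and endothelial cells that of Ctsl (562).

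By mean CPM, another type stood above macrophages for 4 genes. Lpl encodes the enzyme that frees fatty acids from circulating lipoproteins. Macrophages had 93.9 and 207 in HC mice and 63.6, 52.1 and 76.9 in chow mice. Stromal cells had 957 and 1240 in HC mice and 1937, 770 and 725 in chow mice, and alpha cells had 584 and 402 in HC mice and 481, 411 and 509 in chow mice. Both types lay above macrophages in all 5 mice. Lpl was lower in macrophages than in stromal cells (log2 -3.06, SE 0.324, adjusted p = 9.05e-08 by edgeR) and than in alpha cells (log2 -2.24, SE 0.312, adjusted p = 3.22e-06), and higher than in delta cells (log2 3.77, adjusted p = 8.94e-06). The difference from beta cells was -0.09 (log2, SE 0.358, adjusted p = 0.862). The fit averages the other types on the log scale, and its difference from their mean was 0.07 (SE 0.362), while the ratio of macrophages to the mean level of the other types was 0.287.

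Ctsl, a cathepsin that many cell types make, averaged 282 CPM in macrophages, against 562 in endothelial, 521 in stromal, 330 in delta, 188 in alpha and 101 in beta cells. Endothelial cells lay above macrophages of the same mouse in 5 of 5 mice. In the fit the macrophage difference was -0.23 from endothelial (SE 0.241, adjusted p = 0.466) and -0.65 from stromal cells (SE 0.246, adjusted p = 0.0559), and Ctsl was higher in macrophages than in beta cells (log2 0.76, adjusted p = 0.00694). Neu1, the lysosomal sialidase, averaged 60.7 in macrophages and 91.0 in endothelial cells, which were higher in 4 of 5 mice, but the fitted difference was 0.15 (SE 0.213, adjusted p = 0.614), of the other sign. Lamp2, a main protein of the lysosomal membrane, averaged 193 in macrophages and 203 in stromal cells, a fitted difference of 0.06 (SE 0.145, adjusted p = 0.846). Cd63, a tetraspanin that also sits in the membrane of secretory granules, averaged 1004 ± 174 in macrophages and 951 ± 254 in stromal cells (SD, n = 5 each), followed by 750 in delta, 545 in beta and 297 in alpha cells and 58.8 in endothelial cells. The first pair did not differ beyond the spread (fitted log2 0.31, adjusted p = 0.323). Beta cells gave most of their UMIs to insulin, and with hormone genes left out of the totals they held Cd63 at a mean of 1761, above macrophages, and also Asah1, acid ceramidase, at 200. On that scale 23 of the 29 genes were highest in macrophages, against 25 on the scale of all UMIs.

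The fatty acid genes were uneven among types and mice. Fabp5, a fatty acid binding protein, averaged 691 ± 828 CPM in macrophages (SD, n = 5), with 244 ± 48.5 in delta cells, 151 ± 68.9 in endothelial cells and 1.63 ± 0.428 in beta cells. Delta cells lay above macrophages of the same mouse in 3 of 5 mice. Cd36, a scavenger receptor for fatty acids and oxidized lipoprotein, rested on 37 UMIs in macrophages and averaged 31.3 there and 16.4 in endothelial cells, with none in beta cells of any mouse.

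In the 97 other lysosome and lipid genes listed for comparison, also with earlier results known, 88 were tested and 54 were higher and 6 lower in macrophages. Their median log2 difference was 1.00. Of all genes tested, 20.2% were called higher and 11.6% lower, with a median of -0.05. Of 31 acid hydrolases 16 were higher and 3 lower among 28 tested, of 16 V-ATPase genes, which build the proton pump, 9 were higher and 0 lower among 15 tested, and of 31 genes for lipid uptake, storage and efflux 19 were higher and 0 lower among 28 tested. The 3 regulators Tfeb, Tfe3 and Mitf were all called higher. The fit averages the other types on the log scale, so a gene called higher can stand below another type. Fabp4 had 45.1 CPM in macrophages and 688 in endothelial cells, Lipe 10.5 and 98.2, and Tfeb 16.4 and 25.8. Angptl4 had 8.70 in macrophages and 98.45 in stromal cells. The 6 lower genes were Aga, Ids, Arsb, Cd164, Sort1 and Igf2r, of which Sort1 and Igf2r encode receptors that sort enzymes to the lysosome. M6pr, another such receptor, was called higher (log2 0.76, adjusted p = 0.000607 by edgeR).

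Between the diets, no gene of the 29 passed the threshold in any of the 6 types. The genes tested numbered 27 in macrophages, 21 in endothelial, 18 in stromal, 22 in delta, 23 in alpha and 23 in beta cells, and 0 in each were called by edgeR and 0 by DESeq2. By edgeR 8 of these 134 estimates (5.97%) had an unadjusted p under 0.05, 2 each in macrophages, delta, alpha and beta cells. Among all genes tested, such a p was found for 77 of 2427 in macrophages, 183 of 5413 in endothelial and 42 of 2690 in stromal cells. It was found for 312 of 9004 in delta, 728 of 10767 in alpha and 582 of 11952 in beta cells. Over all genes the share called was 0% in macrophages, 0.0369% in endothelial, 0% in stromal, 0.0333% in delta, 0.0557% in alpha and 0.00837% in beta cells, so few calls of any gene were made. In bulk sums of a type, more RNA per cell and a larger share of cells that express a gene cannot be told apart.

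In macrophages 23 of the 27 genes tested were above 0 on the log2 scale of HC over chow, beside 49.8% of all genes, and their median was 0.30 against 0.00 over all genes. The median was 0.32 between HC mouse 1 and chow mouse 1, whose library names begin with FUN, and 0.29 between HC mouse 2 and chow mice 2 and 3, whose names begin with SKY; what the prefix stands for is not given in the labels. It was 0.45 without chow mouse 3 and 0.17 to 0.45 with each mouse left out in turn, and -0.06 with HC mouse 2 grouped as chow by its title. The summed level was 23238 ± 2603 CPM in HC mice and 16937 ± 5654 CPM in chow mice (mean ± SD, n = 2 and n = 3), a ratio of 1.37, or 1.24 with hormone genes left out of the totals. The groups overlap because chow mouse 3 lies above HC mouse 1. The hormone share was lower in HC macrophages. Without insulin-rich cells, 18 of 27 genes were above 0 and the median was 0.22.

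Lpl had the smallest p in macrophages. Its 93.9 and 207 CPM in HC mice, from 19 and 75 UMIs, lay above the 63.6, 52.1 and 76.9 of chow mice, from 12, 10 and 20 UMIs. The estimate was 1.15 (log2, SE 0.366), with an adjusted p of 0.996 by edgeR's quasi-likelihood test, an unadjusted p of 0.00755 and adjusted p of 0.0439 to 1.00 over the alternatives. It was 0.34 without HC mouse 2, 1.60 with HC mouse 2 as the only HC mouse (adjusted p = 0.0439) and -0.35 with that mouse grouped as chow, so its size rests on HC mouse 2. Within the prefixes it was 0.27 for FUN and 1.54 for SKY. The alpha cell markers summed to 17720 and 74690 CPM in macrophages of HC mice and 18500, 34560 and 9294 in those of chow mice. Alpha cells held Lpl at a mean of 477 CPM. Whether alpha cell RNA in the macrophage sums adds to their Lpl was not tested.

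Psap, with 2555 and 2970 CPM in HC mice against 1707, 1682 and 2020 in chow mice, did not overlap between the groups either (log2 0.49, SE 0.190, adjusted p = 0.996 by edgeR). Lipa had 133 and 204 in HC mice and 122, 88.5 and 92.3 in chow mice (log2 0.66, SE 0.311, adjusted p = 0.996), and FUN and SKY libraries differed in sign (-0.12 and 1.06). Cd68 had 479 and 652 in HC mice and 307, 245 and 558 in chow mice, and Ctsb, a cysteine protease, had 1740 and 2979 in HC mice and 922, 989 and 2181 in chow mice. Their estimates were 0.50 and 0.69 (SE 0.316 and 0.415, adjusted p = 0.996 by edgeR for both), and in both genes chow mouse 3 lay above HC mouse 1. With HC mouse 2 left out, Psap, Lipa, Cd68 and Ctsb were at 0.31, 0.22, 0.18 and 0.17, and with it grouped as chow at 0.11, -0.14, -0.06 and -0.18. After TMM scaling, the 2 HC mice exceeded every chow mouse for Lpl, Psap and Npc2, 3 of 27 genes, and lay below them for 0, beside 9.15% above and 8.45% below of all genes.

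**Figure D3:**
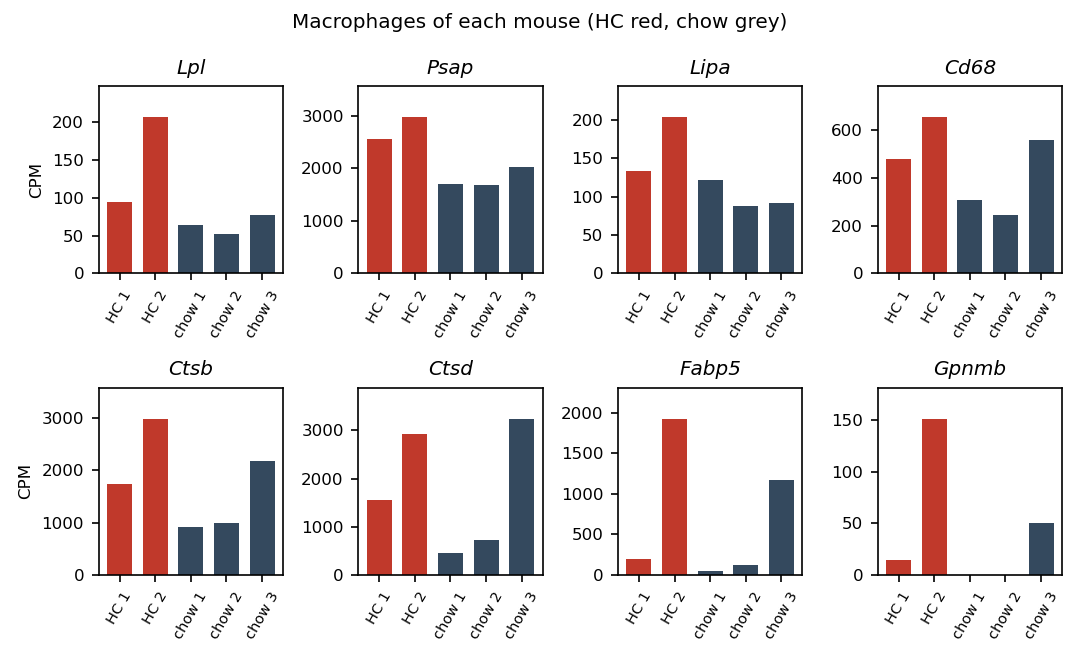
CPM (y axis) of 8 genes in the macrophages of each mouse (x axis), HC mice red and chow mice grey. Lpl and Psap are highest in the 2 HC mice, while Ctsd, Fabp5 and Gpnmb stand high in HC mouse 2 and chow mouse 3.

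The widest spread in macrophages lay within the diets, in genes that HC mouse 2 and chow mouse 3 held high together. Fabp5 had 198 and 1924 CPM in HC mice and 42.4, 120 and 1173 in chow mice. Ctsd had 1557 and 2932 in HC mice and 445, 719 and 3243 in chow mice. Gpnmb had 14.8 and 151 in HC mice, from 3 and 55 UMIs, and 0, 0 and 50.01 in chow mice, where 3 UMIs, the most a count of 0 allows, would give 15.9 and 15.6 in chow mice 1 and 2. The SE of the diet estimate was 1.83 for Fabp5, 1.07 for Ctsd and 1.55 for Gpnmb (log2), against 0.190 for Psap.

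A Gpnmb UMI was found in 2 of 93 and 21 of 122 macrophages of HC mice and in 0 of 57, 0 of 71 and 6 of 104 of chow mice, which is 2.15% and 17.2% (exact 95% binomial intervals 0.262% to 7.55% and 11.0% to 25.1%, counting error only) against 0%, 0% and 5.77%, with intervals up to 6.27%, up to 5.06% and from 2.15% to 12.1%. With each cell thinned to 1000 UMIs the shares were 0% and 8.20% in HC mice and 0%, 0% and 3.85% in chow mice. No beta cell of any mouse held a Gpnmb UMI, although the median beta cell had 6407 to 9618 UMIs against 1492 to 1865 in macrophages. A Fabp5 UMI was found in 10.8% and 33.6% of macrophages of HC mice and 8.77%, 7.04% and 22.1% of those of chow mice, against 1.11% to 1.83% of beta cells. A Ctsd UMI was found in 44.1% and 71.3% of macrophages of HC mice and 52.6%, 57.7% and 70.2% of those of chow mice. After thinning the macrophage shares for Fabp5 were 6.45% and 29.5% in HC mice and 5.26%, 5.63% and 19.2% in chow mice.

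In HC mouse 2 the 21 cells with a Gpnmb UMI, pooled, held Fabp5 at 4529, Ctsd at 6149, Ctsb at 4826, Psap at 4467 and Lpl at 385 CPM, and the other 101 macrophages held 731, 1457, 2132, 2284 and 125. C1qb stood at 2742 in the cells with Gpnmb against 3898 without it. These 21 cells also had more RNA, with a median of 4419 UMIs against 1606, and a deeper cell more readily shows a UMI of any gene. In chow mouse 3 the 6 such cells held Fabp5 at 7317, Ctsd at 12240, Ctsb at 6750 and Psap at 4794, against 774, 2659, 1885 and 1839 in the other 98. C1qb went the other way from HC mouse 2, at 5425 in the cells with Gpnmb against 3146 without. Lyz2, another macrophage marker, was higher in the cells with Gpnmb in both mice. It stood at 19670 against 10210 in HC mouse 2 and 42770 against 15560 in chow mouse 3. Lpl had no UMI among the 15853 UMIs of the 6 cells with Gpnmb, against 81.9 CPM in the cells without, a difference not detectable at this depth. The cells without a Gpnmb UMI still had more Fabp5 and Ctsd in these 2 mice than all macrophages of chow mice 1 and 2. In HC mouse 2 the 13 macrophages with the most Fabp5, of 122, carried 68.0% of its 699 UMIs, and in chow mouse 3 the top 11 of 104 carried 87.5% of 305. For Psap the same numbers of top cells carried 37.9% and 32.2%. These are cells of 1 mouse each and are no replicates of a diet.

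**Figure D4:**
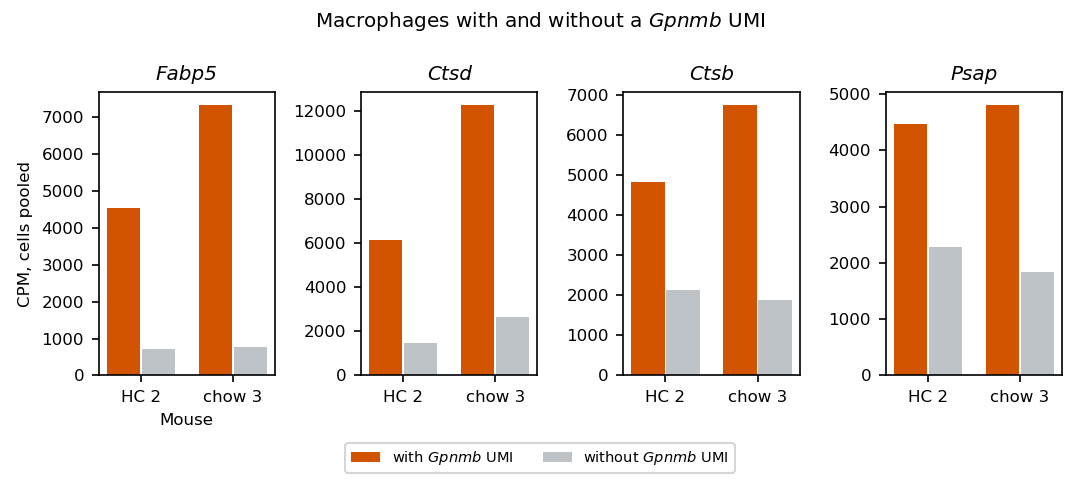
CPM (y axis) of Fabp5, Ctsd, Ctsb and Psap in the pooled macrophages with a Gpnmb UMI (orange) and without one (grey) of HC mouse 2 and chow mouse 3 (x axis). The cells with Gpnmb are higher for all 4 genes in both mice, with Fabp5 at 4529 against 731 and 7317 against 774.

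In beta cells the estimates were small and precise. Of 23 genes tested 14 were above 0, beside 48.9% of all genes, with a median log2 of 0.03 against 0.00 over all genes, and 0.11 and 0.12 within the FUN and SKY libraries. Hexa had 120 and 94.9 CPM in HC mice and 94.6, 71.8 and 89.0 in chow mice (log2 0.27, SE 0.0992, adjusted p = 0.951 by edgeR). Ctsd followed at 0.23 (SE 0.0897), Cd63 at 0.17 and Lamp2 at 0.15, and Lamp1, the other main lysosomal membrane protein, at -0.16, each with an adjusted p of 0.951 by edgeR. After TMM scaling the 2 HC mice exceeded every chow mouse for Hexa, Ctsd, Cd63, Lamp2, Tpp1 and Neu1, 6 of 23 genes beside 10.4% of all genes, and lay below them for Lamp1, beside 10.5%. On the scale of CPM, where insulin takes a share that differed between mice, all of these but Hexa overlapped.

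Hexa stood first in delta cells too, with 182 and 125 CPM in HC mice against 114, 112 and 120 in chow mice (log2 0.41, SE 0.157, adjusted p = 1.00 by edgeR). Its estimate was 0.69 within FUN and 0.12 within SKY libraries, and 0.14 to 0.63 with each mouse left out in turn. Fabp5 had 210 and 207 in delta cells of HC mice and 324, 253 and 224 in those of chow mice (log2 -0.34, SE 0.148, adjusted p = 1.00), groups that do not overlap. Ctsa, protective protein and cathepsin A, was at 0.37, Tpp1, a tripeptidyl peptidase, at 0.51 and Lamp2 at 0.22 (adjusted p = 1.00 by edgeR for each). Of 22 genes tested in delta cells 17 were above 0, beside 50.9% of all genes, with a median of 0.07. HC lay above chow for 3 genes, beside 8.73% of all genes, and below for 1, beside 8.14%.

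In alpha cells Gusb had 19.6 and 16.8 CPM in HC mice and 13.1, 11.4 and 12.9 in chow mice (log2 0.46, SE 0.187, adjusted p = 0.696 by edgeR), without overlap. Ctsh had 4.34 and 3.10 in HC mice and 5.14, 6.94 and 4.82 in chow mice (log2 -0.68, SE 0.320, adjusted p = 0.725). Hexa was at 0.19, Scarb2, the receptor that carries glucocerebrosidase to lysosomes, at -0.20 and Grn at 0.29, with adjusted p of 0.820, 0.836 and 0.842 by edgeR. Hexa was at -0.01 without HC mouse 1. Of 23 genes tested 14 were above 0, beside 49.9% of all genes, with a median of 0.06, and HC lay above chow for 2 genes and below for 2, beside 11.5% and 10.9% of all genes.

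In endothelial cells 9 of 21 genes tested were above 0, beside 48.8% of all genes, with a median of -0.07. Tpp1 had 51.3 and 61.0 CPM in HC mice and 37.8, 33.1 and 27.1 in chow mice (log2 0.71, SE 0.376, adjusted p = 1.00 by edgeR), and Lipa had 93.5 and 66.3 in HC mice and 110, 99.3 and 145 in chow mice (log2 -0.52, SE 0.286, adjusted p = 1.00). Neither gene overlapped between the diets. Lamp2, Fabp5 and Ctsz were at 0.33, 0.57 and -0.23, with adjusted p of 1.00 each by edgeR. The sign for Fabp5 rests on HC mouse 2, without which it was -0.27. HC lay above chow for 2 genes, beside 7.93% of all genes, and below for 6, Ctsz, Hexa, Npc2, Ctsl, Ctsb and Lipa, beside 8.76%. Lpl in endothelial cells came from HC mouse 1, with 115 and 15.9 CPM in HC mice against 27.5, 36.4 and 0 in chow mice, and was called in the fit without HC mouse 2 (log2 2.07, adjusted p = 0.00110 by edgeR) and not with it (log2 1.22, adjusted p = 1.00).

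In stromal cells 14 of 18 genes tested were above 0, beside 49.1% of all genes, with a median of 0.25, but the median was -0.15 without HC mouse 2, which gave 131 stromal cells where HC mouse 1 gave 30, and -0.30 with that mouse grouped as chow. Grn had 132 and 169 CPM in HC mice and 124, 58.4 and 114 in chow mice (log2 0.55, SE 0.361, adjusted p = 0.999 by edgeR). Ctsb, Ctsh, Hexa and Ctsa were at 0.57, 0.62, 0.47 and 0.51, with the same adjusted p of 0.999 by edgeR. With HC mouse 2 left out, Grn and Ctsh were at 0.17 and 0.52, but Ctsb, Hexa and Ctsa at -0.02, -0.51 and -0.41, so the signs of these 3 rest on that mouse. After TMM scaling no gene was free of overlap, beside 6.99% of all genes above and 7.58% below.

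**Figure D5:**
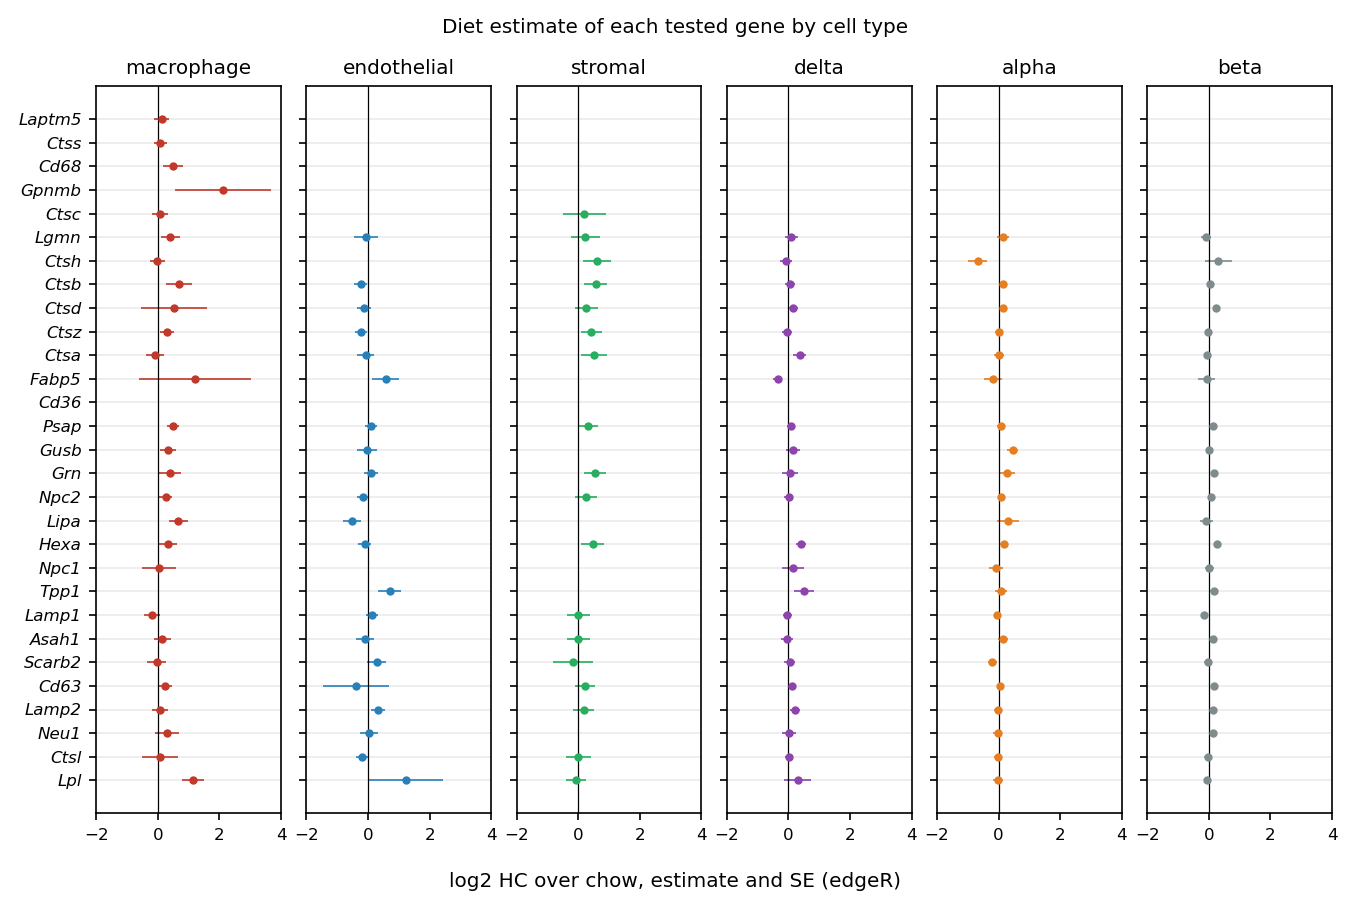
Estimated log2 of HC over chow with its SE (x axis, edgeR) for each gene tested (y axis) in each of the 6 cell types. None passed an adjusted p of 0.05, and Fabp5, Gpnmb and Ctsd have the widest bars in macrophages.

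The diet estimate in macrophages was set against that in beta cells in 1 fit. None of the 28 genes tested differed (edgeR interaction of diet and cell type, adjusted p under 0.05), beside 0.018% of all genes called. An unadjusted p under 0.05 was found for 3 of the 28 genes, and for 437 of all 11102 genes tested. Lpl was 1.25 higher in macrophages than in beta cells (log2, SE 0.327, adjusted p = 0.184 by edgeR), Lgmn 0.58 (SE 0.246, adjusted p = 1.00) and Psap 0.39 (SE 0.184, adjusted p = 1.00). With HC mouse 2 left out these were 0.42, 0.75 and 0.11. Over the alternatives Lpl was called without insulin-rich cells of the other types (1.86, adjusted p = 0.0389), with HC mouse 1 left out (1.75, adjusted p = 0.00464) and with chow mouse 3 left out (1.42, adjusted p = 0.0433). Ctsb, at 0.74 (adjusted p = 1.00 by edgeR) with all mice, was called at 1.31 (adjusted p = 0.000623) once HC mouse 1 was left out, and at 1.15 (adjusted p = 2.52e-05) once chow mouse 3 was.

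Of the 97 other lysosome and lipid genes, none was called between the diets in any type. In macrophages 36 were tested and 28 were above 0, beside 49.8% of all genes, with a median of 0.20. Apoe, which carries lipid out of macrophages, had 22330 and 21070 CPM in HC mice and 14730, 13740 and 17890 in chow mice (log2 0.36, SE 0.164, adjusted p = 0.996 by edgeR). Fuca1, an alpha-fucosidase, had 198 and 176 in HC mice and 111, 98.9 and 138 in chow mice, and Atp6v1a, a subunit of the V-ATPase, had 64.3 and 105 in HC mice and 21.2, 31.2 and 73.1 in chow mice. In CPM Apoe and Fuca1 did not overlap between the diets and Atp6v1a did. The share of all genes without overlap in CPM was not counted. After TMM scaling both HC mice exceeded every chow mouse for 9.15% of all genes in macrophages, which is no background for the CPM values. In beta cells 81 were tested and 53 were above 0, beside 48.9% of all genes, with a median of 0.05. There Vldlr and Fabp3 had the smallest p, at 0.38 and -0.63 (adjusted p = 0.936 and 0.951 by edgeR).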

How the data were processed

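Per the submitters' processing notes, Cell Ranger 4.0.0 and the mm10 build were used; the annotation and the cell calling are not given in the sources used here. The deposited matrices hold the authors' UMI counts per gene and barcode, not normalized. The 29 genes and the comparison lists were chosen with earlier results of these data known.

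Barcodes with at least 1000 UMIs, 500 genes and at most 15% mitochondrial UMIs passed (3651 to 5122 per mouse). Scrublet called 14 doublets (0.0615%), so doublet detection did not work and droplets with RNA of more than 1 cell remain. With scanpy 1.11.5 and igraph 0.11.9, 2000 variable genes without the 29, 30 principal components, 15 neighbours and Leiden resolution 1 gave 19 clusters. Naming took 3 or more markers of a type among a cluster's 10 leading genes, 2 times those of each other type, and other endocrine hormones under 50% of the level in their top cluster. This naming was decided with the clusters in view. Unnamed clusters held 2948 cells (13.0%). Acinar cells had fewer than 20 in some mice and were not tested.

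Counts were summed per mouse and type, so the mouse is the replicate. edgeR 4.0.16 in R 4.3.3 (two-sided robust quasi-likelihood test after filterByExpr and TMM, with Benjamini-Hochberg adjustment over all genes tested) compared HC with chow within a type, and macrophages with the mean of the other 5 types and the diet effects of macrophages and beta cells with the mouse as a block. SE is the estimate over the root of F. Levels are CPM of the sum; the hormone genes left out in places are Ins1, Ins2, Gcg, Sst, Ppy, Iapp and Pyy. Alternatives included DESeq2 1.42.0 and leaving out each mouse. The fits were tested on simulated data. The text names, per type, the 5 genes of smallest diet p; against the other types, the 5 highest and 5 lowest folds and those another type holds higher; and the 3 of smallest interaction p. Other genes were named after their values were seen, among them Fabp5, Ctsd and Gpnmb in macrophages. Intervals of shares are exact 95% binomial intervals; 500 beta cells per mouse were thinned as the background.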

Additional observations from a re-analysis of the deposited data

Results flagged for a closer look

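For 3 genes the HC mice both exceeded every chow mouse in 1 cell type and lay below all of them in another, after TMM scaling. Of all genes tested in a type, 6.99% to 11.5% lay above and 7.58% to 10.9% below in this way. The share of all genes on opposite sides in different types was not counted. The differences between the types were not tested. Npc2 was 0.43 higher on the log2 scale of HC over chow in macrophages than in endothelial cells, and 0.25 higher in alpha than in endothelial cells. For Hexa the estimate was 0.52 higher in delta and 0.37 higher in beta than in endothelial cells. For Scarb2 the estimate was 0.48 higher in endothelial than in alpha cells. No diet group had the 4 mice needed to look for a mouse that stands apart.

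Of the 7 unnamed clusters of 50 or more cells, which stand outside the comparisons, 2 had a median summed level of the 29 genes above that of every named type but macrophages. In 1 of them the 195 cells, 105 of HC mice and 90 of chow mice, were led by Cd74, H2-Ab1, H2-Aa, H2-Eb1 and Cd52 met no naming rule. The summed level was 6704 and 7101 CPM in HC mice and 7921, 10474 and 7237 in chow mice, with a median of 7237 over the 5 mice. Pooled over the mice, Ctss stood at 840, Ctsh at 530, Laptm5 at 528 and Psap at 1602 CPM, while Lgmn stood at 79.0 and Ctsd at 184. The other, with 28 cells of HC mice and 41 of chow mice, was led by Apoe, Vim, Sparc, Fabp7 and Cryab. The summed level was 6562 and 8597 CPM in HC mice and 7737, 7781 and 6413 in chow mice, with a median of 7737. Pooled over the mice, Cd63 stood at 1184, Lamp1 at 1153, Fabp5 at 1143 and Ctsl at 546 CPM, and Ctss, Cd68 and Laptm5 had no UMI.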

How the results depend on the processing

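Of 935 values recomputed for 64 results, 906 kept their direction and side of the threshold or stayed within the spread between mice. No paired analysis was possible because replicate numbers follow accession order and pair no mice. With the library name prefix as a term, 0 genes were called in each type and the median was 0.28 in macrophages and -0.07 to 0.26 in the other types. The stricter cell filter left 19 macrophages in chow mouse 2 and no stromal type, so neither was recomputed, and resolution 0.5 gave no delta type; the removal of the highest doublet scores was chosen after seeing the data and moved no result listed here. With HC mouse 2 grouped as chow by its title, the median log2 over the genes was -0.06 in macrophages, -0.30 in stromal, 0.15 in delta and 0.08 in beta cells, and 1 gene (Lpl) was called in endothelial cells. In endothelial cells the median was 0.02 without the filter on low counts and 0.10 within FUN libraries, and the summed level was 1.06 times chow under the stricter filter. In beta cells it was 0.11 for FUN and 0.12 for SKY libraries. Leaving out each mouse gave medians of 0.17 to 0.45 in macrophages, -0.08 to 0.03 in endothelial, -0.15 to 0.47 in stromal, 0.02 to 0.15 in delta and 0.04 to 0.12 in beta cells. It gave 0 to 1 genes called in macrophages and in endothelial cells and 0 to 2 in the interaction, which also had 1 without insulin-rich cells. At resolution 0.5 the macrophage cluster took in the unnamed leukocytes, and the other types no longer held delta cells. In that fit 2 genes were called lower in macrophages than in the other types, Lpl (-0.97) and Ctsl (-0.47), of the opposite sign. In the main fit Lpl was 3.77 (log2) higher in macrophages than in delta cells, so the contrast for Lpl also changed with its set of types. For these moves the cause was not tested. With 2 and 3 mice per diet and 188636 to 363254 macrophage UMIs per mouse, small changes of low genes could not be detected. Larger changes could also be missed in genes that spread widely between mice. In macrophages the SE was 1.07 (log2) for Ctsd, at a mean of 1779 CPM, and 1.83 for Fabp5, at 691.5 CPM.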
